A study of Danio rerio with 12 samples.

Results

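Macrophages are tissue phagocytes that clear dying cells and debris, and damaged skeletal muscle is a tissue in which they are well known to gather. Their development depends on the transcription factor PU.1, made in zebrafish by spi1b, and on the colony stimulating factor receptor made by csf1ra. Macrophages are also a major source of C1q, the recognition part of the classical complement pathway, which is built from the products of c1qa, c1qb and c1qc. A further set of genes, lcp1, ptprc and coro1a, is active in nearly all white blood cells. The 10 genes described here are mpeg1.1, csf1ra, marco and spi1b for macrophages, the 3 C1q genes, and these 3 pan-leukocyte genes. They were chosen by name, with earlier results of these data known. They are 10 of the 32520 genes counted, and were each found once in the count tables.

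The study compared desmin mutants with wild type (WT) zebrafish in extraocular muscle (EOM), the muscles that move the eye, and in trunk muscle, with the stated purpose of examining why EOM resists muscular dystrophy. Desmin is the intermediate filament protein that links neighbouring myofibrils of a muscle fibre. The mutants were desma-/-;desmb-/- fish and the references were WT fish, all of strain AB and aged 20 months, and the mutant was generated in the line that supplied the WT fish. In the series' design text the loss of desmin is called a knock-down. There were 4 groups of 3 libraries, namely mutant EOM, WT EOM, mutant trunk and WT trunk. Neither the number of fish behind a library, nor their sex, nor whether an EOM and a trunk library share fish, is given in the sources used here, so p-values measure the spread between these libraries only.

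Sense reads in genes, meaning reads on the strand that carries the genes, totalled 46.1 to 74.1 M (mega) per library. Levels are given as CPM (counts per M reads, on library sizes scaled for composition), at which 3 reads correspond to 0.0373 to 0.0754 CPM. The targeted gene desma averaged 35.0 ± 8.28 CPM in mutant EOM and 636 ± 57.3 CPM in WT EOM, and in trunk 32.5 ± 15.9 CPM in mutants and 619 ± 59.7 CPM in WT (SD, n = 3 each). The other targeted gene, desmb, had 3 to 14 reads in every library and checks no label. The labels give myofibres as the cell type, and a list of 8 muscle fibre genes summed to 25125 to 36740 CPM in EOM and 113220 to 156439 CPM in trunk. The tissue was dissected whole muscle, however, and leukocyte genes were measured in all 12 libraries. EOM libraries also held transcripts of photoreceptors and retina, with 7 genes summing to between 66.8 and 177 CPM in mutant EOM, between 46.1 and 360 CPM in WT EOM, at most 1.12 CPM in mutant trunk and between 7.74 and 66.5 CPM in WT trunk.

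All 10 genes had higher mean levels in mutant than in WT muscle, in EOM and in trunk. Of all genes tested, 48.0% had a log2 fold change above 0 in EOM and 48.5% in trunk. In mutant EOM 5 of the 10 rose past the test (marco, spi1b, lcp1, ptprc and coro1a), beside 2.15% of all genes tested. In mutant trunk 9 rose, all but mpeg1.1, beside 4.76% of all genes tested. The summed level of the 10 was 213, 204 and 181 CPM in the 3 mutant EOM libraries, against 115, 122 and 129 CPM in WT EOM. In trunk it was 138, 129 and 114 CPM in mutant libraries, against 62.6, 61.9 and 61.5 CPM in WT libraries. The groups of a tissue did not overlap, and on these scaled library sizes mutant trunk reached the level of WT EOM. The mutant mean was 1.63-fold the WT mean in EOM and 2.05-fold in trunk, while the added amount was 77.4 CPM in EOM and 65.0 CPM in trunk. The fold of the sum was thus smaller and its added amount larger in EOM, where the WT level was 1.97-fold that of WT trunk. On scaled library sizes the added amounts differed by gene. marco gained 24.9 CPM in EOM and 17.2 CPM in trunk. The 3 pan-leukocyte genes together gained 29.9 CPM in EOM and 30.4 CPM in trunk. For lcp1 (12.5 CPM in EOM and 14.8 CPM in trunk) and c1qa (1.56 CPM in EOM and 2.11 CPM in trunk) this scaled gain was smaller in EOM. On unscaled library totals the fold of the sum was again smaller and its added amount again larger in EOM. The folds were 1.75 in EOM and 2.01 in trunk, and the added amounts 112.3 CPM in EOM and 49.7 CPM in trunk. The gains of lcp1, of c1qa and of the 3 pan-leukocyte genes together were then larger in EOM as well. For lcp1 the unscaled level was 46.8 to 52.7 CPM in mutant EOM, against 28.4 to 33.1 CPM in WT EOM. In trunk it was 19.9 to 23.6 CPM in mutants, against 9.24 to 11.2 CPM in WT. The WT EOM level of the sum was then 3.06-fold that of WT trunk, and every WT EOM library lay above every mutant trunk library. In bulk tissue, more cells of a type and more RNA per cell cannot be told apart.

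**Figure D1:**
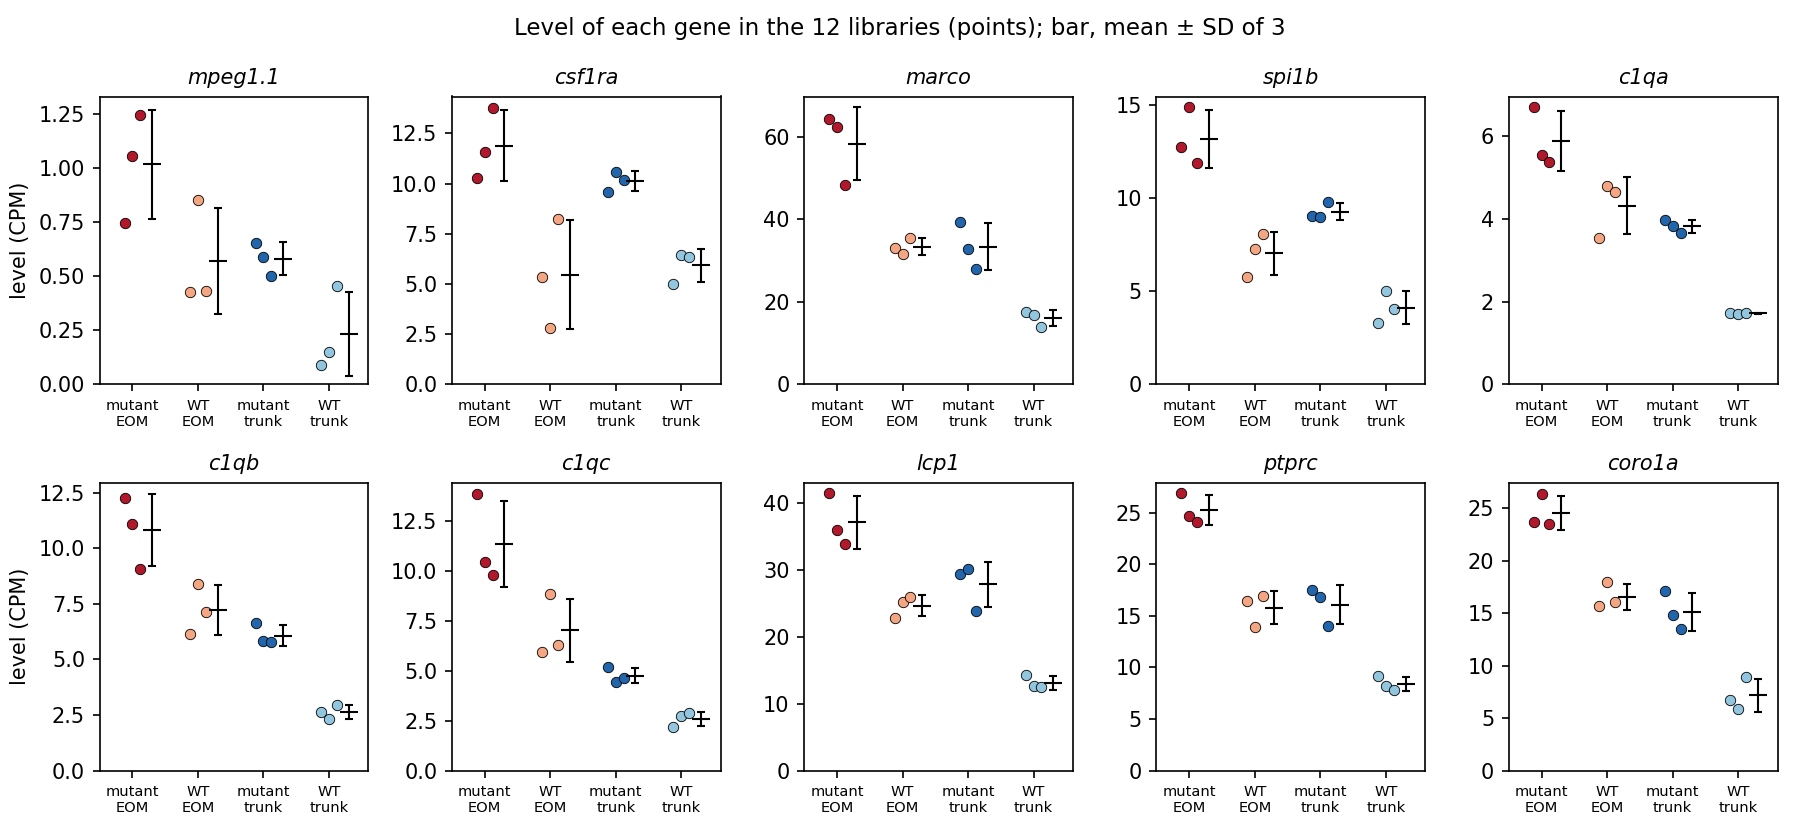
Level of each of the 10 genes in CPM (vertical axes, starting at 0) in the 12 libraries, grouped as mutant EOM, WT EOM, mutant trunk and WT trunk. Points are libraries and the bar beside them is the mean ± SD of 3. In trunk every mutant point lies above every WT point for all 10 genes, and in EOM for all but mpeg1.1. The same held for 15% of all genes tested in trunk and 13.3% in EOM.

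Among the macrophage genes, spi1b, which makes the transcription factor PU.1 and is needed for myeloid cells to form, had 12.7, 14.9 and 11.9 CPM in mutant EOM, against 5.79, 7.27 and 8.04 CPM in WT EOM. In trunk it had 9.03, 8.97 and 9.79 CPM in mutants, against 3.29, 5.02 and 4.05 CPM in WT. Mutant and WT libraries stood apart in both tissues, with little spread among the 3 mutant trunk libraries. By edgeR's quasi-likelihood test, with p-values adjusted over all tested genes by the Benjamini-Hochberg method, spi1b rose by a log2 fold change of 0.91 ± 0.15 (SE) in EOM (adjusted p = 0.0212) and 1.19 ± 0.17 in trunk (adjusted p = 0.00297). Reads on the strand opposite to spi1b made up 11.6% to 12.02% of its stranded reads in mutant EOM, 22.8% to 28.1% in WT EOM, 14.8% to 18.4% in mutant trunk and 22.8% to 37.3% in WT trunk. For the other 9 genes that share was at most 1.196%. Reads opposite to spi1b numbered 113 to 159 in mutant EOM, 149 to 169 in WT EOM, 82 to 94 in mutant trunk and 56 to 87 in WT trunk. Its sense reads numbered 859 to 1167 in mutant EOM, 381 to 572 in WT EOM, 416 to 472 in mutant trunk and 146 to 200 in WT trunk. The opposite-strand reads enter no level of spi1b given here and no test of sense counts, and their part in its sense counts was not tested.

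The scavenger receptor gene marco, whose product takes up bacteria and modified lipoproteins, had 64.4, 62.3 and 48.3 CPM in mutant EOM, against 32.9, 31.7 and 35.5 CPM in WT EOM. Trunk libraries held 39.3, 32.9 and 27.9 CPM in mutants, against 17.6, 16.8 and 14.0 CPM in WT. The lowest mutant library of each tissue was replicate 3, and it still lay above every WT library. The gene rose in EOM by 0.81 ± 0.13 (log2, adjusted p = 0.0204) and in trunk by 1.07 ± 0.16 (log2, adjusted p = 0.00316).

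csf1ra, one of the zebrafish genes for the receptor of colony stimulating factor 1 and interleukin 34, followed another pattern. Mutant EOM had 10.3, 11.6 and 13.8 CPM, against 5.33, 2.80 and 8.24 CPM in WT EOM, and mutant trunk had 9.57, 10.6 and 10.2 CPM, against 4.98, 6.45 and 6.33 CPM in WT trunk. The WT EOM libraries spread more widely than those of any other group, with a coefficient of variation of 49.9%. The gene rose in trunk (0.79 ± 0.15, log2, adjusted p = 0.0118), and in EOM its estimate of 1.13 ± 0.33 was the largest of the 10 but did not pass the test (adjusted p = 0.112). It was also the gene whose EOM and trunk levels lay closest in fold, at 11.9 ± 1.77 CPM in EOM and 10.1 ± 0.500 CPM in trunk of mutants, and 5.45 ± 2.72 CPM in EOM and 5.92 ± 0.816 CPM in trunk of WT fish (SD, n = 3 each). In zebrafish csf1ra is also known from xanthophores, the yellow pigment cells. A list of 5 xanthophore genes was chosen after the values were seen, namely aox5, gch2, slc2a15b, pax7a and pax7b. pax7a and pax7b are also known from the satellite cells of muscle, so their sum does not measure xanthophores alone. Together the 5 had 2.07 ± 0.275 CPM in mutant EOM and 2.29 ± 0.834 CPM in WT EOM, and in trunk 6.12 ± 0.136 CPM in mutants and 8.18 ± 2.38 CPM in WT. None of the tested genes of this list passed the test in either tissue, and the part of xanthophores in the csf1ra levels was not tested.

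mpeg1.1, a perforin-like gene whose promoter is widely used to label zebrafish macrophages, was barely detected. It had 60, 83 and 90 reads in mutant EOM, against 28, 67 and 29 reads in WT EOM, and 30, 31 and 24 reads in mutant trunk, against 4, 6 and 18 reads in WT trunk. The EOM groups overlapped and the trunk groups did not, and the gene passed the test in neither (log2 fold change 0.83 ± 0.36, adjusted p = 0.272, in EOM and 1.35 ± 0.55, adjusted p = 0.157, in trunk). Its estimate in trunk was the largest of the 10 and had the largest error. The paralog mpeg1.2 had 0 to 37 reads per library, with means of 0.227 CPM in mutant EOM and 0.442 CPM in WT EOM, and mpeg1.3 had 0 reads in all 12. Any reads shared between these copies are missing from the counts, as reads with several mapping places were not assigned to a gene.

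The C1q genes encode the A, B and C chains, which assemble together into one protein. Counts of c1qa gave 6.71, 5.56 and 5.39 CPM in mutant EOM, against 3.54, 4.79 and 4.64 CPM in WT EOM, and in trunk 3.97, 3.84 and 3.66 CPM in mutants, against 1.71, 1.71 and 1.73 CPM in WT. The WT trunk libraries were nearly identical, and no mutant library overlapped its WT group. For c1qb the mutant EOM libraries held 12.3, 11.1 and 9.08 CPM, against 6.17, 8.38 and 7.13 CPM in WT EOM, and mutant trunk held 6.62, 5.81 and 5.77 CPM, against 2.62, 2.33 and 2.97 CPM in WT trunk. For c1qc mutant EOM had 13.8, 10.4 and 9.80 CPM, against 5.94, 8.85 and 6.27 CPM in WT EOM, and in trunk 5.19, 4.45 and 4.62 CPM in mutants, against 2.16, 2.71 and 2.87 CPM in WT.

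None of the 3 C1q genes passed the test in EOM, although every mutant EOM library lay above every WT one for each of them. There the log2 fold changes were 0.45 ± 0.17 for c1qa (adjusted p = 0.201), 0.59 ± 0.16 for c1qb (adjusted p = 0.0890) and 0.70 ± 0.19 for c1qc (adjusted p = 0.0938) in edgeR's test. In trunk all 3 rose, by 1.17 ± 0.18 for c1qa (adjusted p = 0.00387), 1.22 ± 0.17 for c1qb (adjusted p = 0.00282) and 0.90 ± 0.18 for c1qc (adjusted p = 0.0153). As a share of C1q reads, c1qc made up 38.5% to 42.1% in mutant EOM, 34.7% to 40.2% in WT EOM, 31.5% to 32.9% in mutant trunk and 33.3% to 40.1% in WT trunk, so its share in mutant trunk lay below that of every other library. Gene length does not enter this comparison, since it sets the same chain beside itself across libraries.

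Among the pan-leukocyte genes, ptprc, which makes CD45, the membrane phosphatase that marks blood cells other than red cells, had 26.9, 24.7 and 24.1 CPM in mutant EOM, against 16.5, 13.9 and 17.0 CPM in WT EOM. Trunk libraries had 17.5, 16.8 and 14.0 CPM in mutants, against 9.13, 8.18 and 7.79 CPM in WT. It rose in EOM by 0.68 ± 0.12 (log2, adjusted p = 0.0226) and in trunk by 0.96 ± 0.14 (log2, adjusted p = 0.00347). The gene lcp1, which makes L-plastin, an actin-bundling protein, had 41.6, 36.0 and 33.9 CPM in mutant EOM, against 22.9, 25.2 and 26.0 CPM in WT EOM. In trunk the values were 29.4, 30.2 and 24.0 CPM in mutants, against 14.3, 12.6 and 12.5 CPM in WT. It rose by 0.59 ± 0.12 in EOM (log2, adjusted p = 0.0342) and by 1.11 ± 0.14 in trunk (log2, adjusted p = 0.00149), the smallest adjusted p of the 10 genes there.

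coro1a, which makes coronin 1A, a regulator of actin in leukocytes, had 23.7, 26.4 and 23.5 CPM in mutant EOM, against 15.7, 18.0 and 16.1 CPM in WT EOM. Mutant trunk held 17.1, 14.8 and 13.4 CPM, against 6.77, 5.87 and 8.90 CPM in WT trunk. The groups of a tissue stood apart for all 3 pan-leukocyte genes. The gene rose by 0.57 ± 0.11 in EOM (log2, adjusted p = 0.0312) and 1.09 ± 0.18 in trunk (log2, adjusted p = 0.00654).

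These counts are set beside those of all genes as a description only, since the 10 were chosen with earlier results of these data known. Of the 18980 genes tested in EOM, 2.15% were called higher in mutants, beside 5 of the 10, and in 13.3% all 3 mutant libraries lay above all 3 WT libraries, beside 9 of the 10. Of the 17342 genes tested in trunk, 4.76% were called higher in mutants, beside 9 of the 10, and in 15% the mutant libraries all lay above the WT ones, beside all 10. The median log2 fold change of the 10 genes was 0.69 in EOM, where that of all tested genes was -0.02, and 1.099 in trunk, where that of all tested genes was -0.01.

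The number of EOM calls varied with the library left out. Without mutant EOM replicate 1, mutant EOM replicate 2 or WT EOM replicate 1, none of the 10 genes was called, and the number of genes called overall fell to 127, 131 and 161, against 675 with all 6; 2745, 2630 and 3034 genes then had an unadjusted p under 0.05. Without mutant EOM replicate 3 there were 2 calls among the 10 and 255 among all genes. Without WT EOM replicate 2 there were 7 among the 10 and 646 among all genes, and without WT EOM replicate 3 there were 4 and 561. All 10 fold changes stayed positive in each of these fits. DESeq2 called 8 of the 10 in EOM, and 1468 of all genes. Added by DESeq2 were csf1ra (adjusted p = 0.0108), c1qb (adjusted p = 0.0485) and c1qc (adjusted p = 0.0363). c1qb and c1qc were also called in edgeR on unscaled library totals (adjusted p of 0.0316 for c1qb and 0.0326 for c1qc), and csf1ra in edgeR's fit of all 12 libraries (adjusted p = 0.0397). In trunk 7 to 10 genes were called with 1 library left out, and c1qc was lost without mutant trunk replicate 1, mutant trunk replicate 2 or WT trunk replicate 1, with adjusted p up to 0.0745. There csf1ra was lost without mutant trunk replicate 2 (adjusted p = 0.0623) or WT trunk replicate 1 (adjusted p = 0.0584) and when all 12 libraries were fitted together (adjusted p = 0.115), and mpeg1.1 was called without WT trunk replicate 3 (adjusted p = 0.0232).

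**Figure D2:**
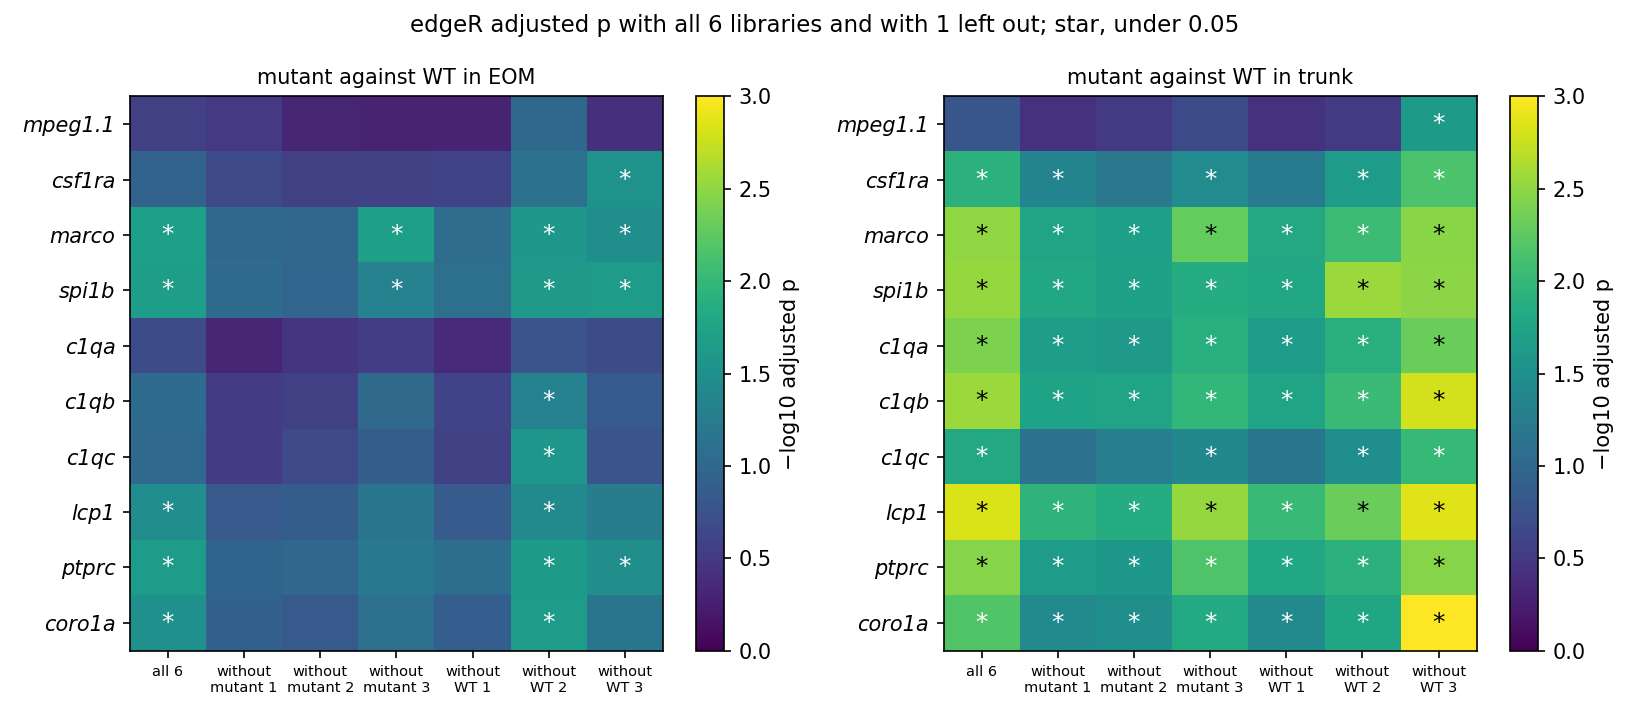
Adjusted p of each gene by edgeR (colour, −log10 scale) for mutant against WT in EOM and in trunk, with all 6 libraries and with each library left out in turn. Stars mark an adjusted p under 0.05. In EOM 3 of the left-out columns hold no star, and in trunk each column holds at least 7.

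The difference between the tissues was tested in 1 fit of all 12 libraries. The mutant effect was smaller in EOM than in trunk for 9 of the 10 estimates, which share their libraries. Of all 19687 genes tested, 48.9% had an estimate of the difference above 0. None of the 10 genes passed the test of that difference by edgeR or by DESeq2. By edgeR 4 of them had an unadjusted p under 0.05, as had 1930 of all 19687 genes tested, and 0.0914% of all genes were called in either direction. The estimates with the smallest p were those of c1qa, at -0.71 (log2, 95% interval -1.21 to -0.21, adjusted p = 0.361), lcp1, at -0.50 (interval -0.89 to -0.11, adjusted p = 0.401), c1qb, at -0.62 (interval -1.11 to -0.12, adjusted p = 0.423), and coro1a, at -0.51 (interval -0.96 to -0.05, adjusted p = 0.474). Each interval is for its gene alone. csf1ra was the exception in sign, at 0.35 (interval -0.50 to 1.21, adjusted p = 0.798). The estimate for c1qc turned to 0.013 without WT EOM replicate 2.

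**Figure D3:**
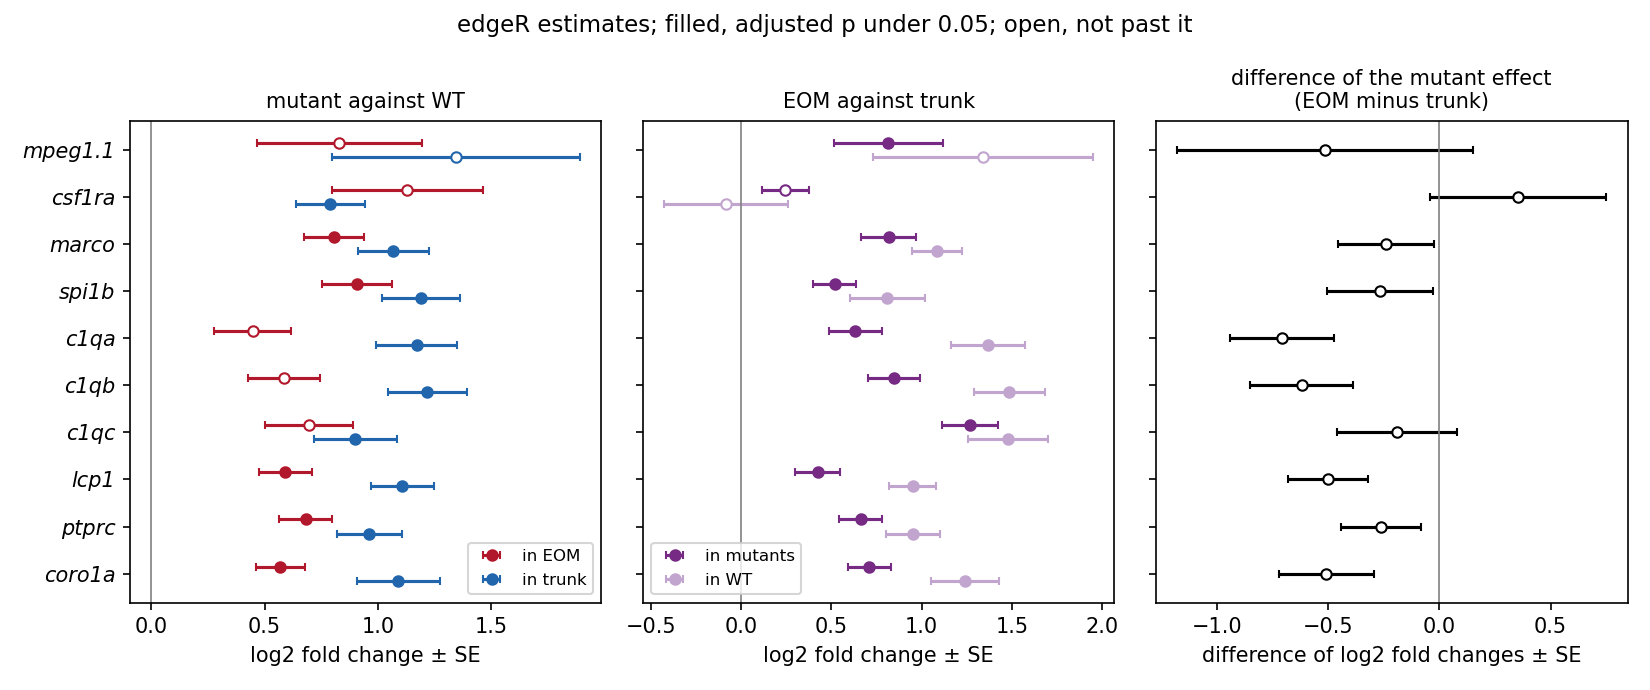
Log2 fold change of each gene ± SE for mutant against WT (left, EOM and trunk), EOM against trunk (middle, mutants and WT), and the difference of the mutant effect between tissues (right, EOM minus trunk). Filled points passed an adjusted p of 0.05. All points on the left lie above 0, csf1ra lies nearest to 0 in the middle, and no point on the right is filled.

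Between the tissues, EOM held more of these transcripts than trunk, relative to the other genes of a library, in either genotype. In mutants 9 of the 10 were higher in EOM, all but csf1ra, beside 27.4% of the 18698 genes tested, and 9 of the 10 had all EOM libraries above all trunk libraries, beside 31.7% of genes. In WT 8 of the 10 were higher in EOM, all but csf1ra and mpeg1.1, beside 25.6% of the 18430 genes tested, and 8 had all EOM libraries above all trunk libraries, beside 31% of genes. These comparisons share their libraries with those of mutant against WT. The C1q genes led in WT, with log2 fold changes of 1.37 ± 0.20 for c1qa (adjusted p = 0.000763), 1.49 ± 0.20 for c1qb (adjusted p = 0.000393) and 1.48 ± 0.22 for c1qc (adjusted p = 0.000741). In mutants c1qc differed most, by 1.27 ± 0.16 (adjusted p = 5.49e-05), and lcp1 least among those called, by 0.43 ± 0.12 (adjusted p = 0.0141).

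Some of these calls changed with the setting. In mutants mpeg1.1, higher in EOM by 0.81 (log2, adjusted p = 0.0402), was not called by DESeq2 (adjusted p = 0.0693), with a replicate block (adjusted p = 0.072) or in edgeR's fit of all 12 libraries (adjusted p = 0.152). It was lost in 5 of the 6 fits with 1 library left out, all but that without mutant EOM replicate 1, with adjusted p up to 0.118. The call of lcp1 in mutants was lost without mutant EOM replicate 1 (adjusted p = 0.0653) or mutant trunk replicate 3 (adjusted p = 0.059), and csf1ra was called in mutants on unscaled library totals (adjusted p = 0.000123). In WT the call of spi1b was lost without WT trunk replicate 1 (adjusted p = 0.0675). mpeg1.1 was called in WT on unscaled library totals (adjusted p = 0.0263), with all 12 libraries fitted together (adjusted p = 0.0385) and without WT trunk replicate 3 (adjusted p = 0.0192).

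csf1ra differed between EOM and trunk by 0.24 ± 0.13 in mutants (adjusted p = 0.137) and by -0.08 ± 0.34 in WT (adjusted p = 0.857), and the WT estimate was 0.54 on unscaled library totals, which moved the median of all genes by 0.60, and 0.23 without WT EOM replicate 2. On unscaled totals the median log2 difference of all genes was 0.79 in mutants and 0.66 in WT, and with scaling it was 0.04 in mutants and 0.06 in WT. Relative to that median, the median of the 10 genes was 0.65 in mutants under both scalings, and in WT it was 1.096 on unscaled totals and 1.098 with scaling. With scaling, the order of the 4 groups was mutant EOM first for all 10 genes and WT trunk last for 9, with csf1ra the exception at the low end. Mutant trunk and WT EOM lay between, and their libraries overlapped for 7 genes. Mutant trunk lay above WT EOM for csf1ra and spi1b, and WT EOM above mutant trunk for c1qc. On unscaled totals WT EOM lay above mutant trunk for all but csf1ra and spi1b, whose libraries overlapped. The share over all genes was not counted for this pair of groups. The mean of mutant EOM was 2.01-fold that of WT trunk for csf1ra, the lowest such ratio of the 10, and 4.40-fold for c1qc and for mpeg1.1, the highest.

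The proportions among these genes were set side by side across groups, without a test. csf1ra made up 6.04% ± 1.43 of the summed level of the 10 in mutant EOM and 4.43% ± 2.04 in WT EOM. In trunk it made up 8.02% ± 1.02 in mutants and 9.56% ± 1.39 in WT (SD, n = 3 each). Within each tissue the mutant and WT ranges of this share overlapped. The summed macrophage genes stood to the summed pan-leukocyte genes at a ratio of 0.955, 1.03 and 0.923 in mutant EOM, against 0.808, 0.745 and 0.886 in WT EOM. In trunk the ratio was 0.914, 0.857 and 0.941 in mutants, against 0.862, 1.07 and 0.850 in WT. The EOM groups did not overlap and the trunk groups did. Most of the summed macrophage genes was marco, at a mean of 68.9% in mutant EOM, 72.1% in WT EOM, 62.3% in mutant trunk and 61.1% in WT trunk. The ratio therefore follows marco more than the other macrophage genes. C1q genes to pan-leukocyte genes gave 0.298 to 0.356 in mutant EOM and 0.284 to 0.385 in WT EOM, and 0.228 to 0.274 in mutant trunk and 0.215 to 0.259 in WT trunk. Within each tissue these ranges overlapped, and every EOM library lay above every trunk library.

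Over the 12 libraries the 45 pairs among the 10 genes had a median Pearson r of 0.90 (range 0.33 to 0.99), a description that includes the differences between groups. After each group's mean was subtracted the median r was 0.18 (range -0.60 to 0.80). Likeness to the mean of the 10 was ranked among 14315 genes, namely those with at least 50 reads on average and mpeg1.1, which had fewer. The genes most like it over the 12 libraries were tnfaip8l2a (r = 0.990) and spi1a, the paralog of spi1b (r = 0.990). They were followed by the genes that the symbol table calls RNF14 (r = 0.989), MMP14 (r = 0.988) and fuom (r = 0.983). With group means subtracted they were those called ENTREP1 (r = 0.955), ENSDARG00000110470.1 (r = 0.931), ms4a17a.1 (r = 0.896), uri1 (r = 0.895) and PRKCD (r = 0.888). Each ranking takes the highest r of 14315 genes over only 12 libraries. How high the top values would be among unrelated genes was not tested. The values of a library share its depth and scaling. csf1ra stood apart, with r = 0.588 to the mean of the 10, to which it itself contributes, and mpeg1.1 had r = 0.861.

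Related genes were taken from lists drawn up by their role, also with earlier results of these data known. The other members of the csf1r axis, the paralog receptor csf1rb and the ligands csf1a, csf1b and il34, had no call among 4 tested in either tissue. In EOM csf1rb had the largest estimate of the 4, at 1.09 ± 0.37 (log2, adjusted p = 0.154). Its means there were 1.63 CPM in mutants and 0.768 CPM in WT. In trunk its estimate was 0.30 ± 0.27 (adjusted p = 0.535), with 1.42 CPM in mutants and 1.18 CPM in WT. The ligand gene il34 had 16.1 CPM in mutant EOM and 14.1 CPM in WT EOM, a log2 fold change of 0.19 ± 0.11 (adjusted p = 0.404). In trunk its log2 fold change was 0.51 ± 0.23 (adjusted p = 0.212), with means of 9.82 CPM in mutants and 7.0 CPM in WT. csf1a had 0.115 CPM in mutant EOM and 0.212 CPM in WT EOM, and in trunk 3.55 CPM in mutants and 3.05 CPM in WT. For csf1b the means were 0.354 CPM in mutant EOM and 0.293 CPM in WT EOM, and in trunk 1.40 CPM in mutants and 1.13 CPM in WT. Of the myeloid transcription factors, 1 of 6 tested rose in EOM and 2 of 5 in trunk. spi1a rose by 0.81 ± 0.13 in EOM (adjusted p = 0.0203) and 1.17 ± 0.17 in trunk (adjusted p = 0.00337). irf8, which is required for zebrafish macrophages to form, rose in trunk by 1.39 ± 0.19 (adjusted p = 0.00232), with 8.05 CPM in mutants and 3.12 CPM in WT, and in EOM its estimate was 0.62 ± 0.17 (adjusted p = 0.0916).

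Of the other macrophage genes, 1 of 18 tested rose in EOM and 4 of 15 in trunk, and none fell. mrc1b, a mannose receptor gene, rose in both, by 0.85 ± 0.16 in EOM (adjusted p = 0.0313) and 1.09 ± 0.13 in trunk (adjusted p = 0.00134). In trunk havcr1, a phosphatidylserine receptor gene, rose by 1.34 ± 0.21 (adjusted p = 0.00489), tspan36 by 0.71 ± 0.15 (adjusted p = 0.0156) and ctsk, the protease gene of osteoclasts, by 0.64 ± 0.14 (adjusted p = 0.0222). tspan36 is also known from pigment cells. Other genes of the list did not pass the test, among them 3 picked after their values were seen. cd68, a lysosomal protein gene of macrophages, had 27.1 CPM in mutant EOM and 26.6 CPM in WT EOM, and in trunk 33.8 CPM in mutants and 34.4 CPM in WT. apoeb, an apolipoprotein E gene, had log2 fold changes of -0.03 ± 0.15 in EOM and -0.31 ± 0.16 in trunk, and apoc1, an apolipoprotein C gene, of -0.49 ± 0.24 in EOM and -0.30 ± 0.54 in trunk. Estimates lay above 0 for 12 of the 18 tested in EOM and 12 of the 15 in trunk, and their median log2 fold change was 0.11 in EOM and 0.42 in trunk.

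Beyond C1q, the list drawn up for classical complement also held genes not particular to that pathway, among them cfd, cfh and c7b. It had 3 of 7 tested genes called higher in EOM and 2 of 6 in trunk, and none called lower. Estimates lay above 0 for 4 of the 7 in EOM and 3 of the 6 in trunk. c4b, a C4 gene, rose by 0.74 ± 0.14 in EOM (adjusted p = 0.0313), with 107.5 ± 4.24 CPM in mutants and 64.6 ± 11.3 CPM in WT, and by 1.29 ± 0.29 in trunk (adjusted p = 0.0325), with 42.1 ± 18.7 CPM in mutants and 17.5 ± 1.19 CPM in WT (SD, n = 3 each). c3b.1, a C3 gene, rose in both tissues, to 1.27 ± 0.231 CPM in mutant EOM, against 0.316 ± 0.0719 CPM in WT EOM, and in trunk to 1.43 ± 0.531 CPM in mutants, against 0.0694 ± 0.0766 CPM in WT (adjusted p by edgeR of 0.0156 in EOM and 0.00228 in trunk). Its WT trunk mean lay near 3 reads, which were 0.0677 to 0.0754 CPM there. Another C3 gene, c3a.1, was not called. It had 12.1 ± 2.01 CPM in mutant EOM and 15.8 ± 4.14 CPM in WT EOM, and in trunk 0.848 CPM in mutants and 1.47 CPM in WT. c7b had 12.4 CPM in mutant EOM and 21.6 CPM in WT EOM (log2 fold change -0.80 ± 0.20, adjusted p by edgeR of 0.0713). cfh, a complement regulator gene, was called in EOM (adjusted p = 0.0166), at 0.501 CPM in mutants and 0.0934 CPM in WT. The median log2 fold change over the tested genes of this list was 0.01 in EOM and 0.15 in trunk.

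Of the other pan-leukocyte genes, 10 of 25 tested rose in EOM and 13 of 24 in trunk, with none lower, and their median log2 fold change was 0.52 in EOM and 0.82 in trunk. itgae.1, an integrin alpha gene, had the smallest adjusted p in both, at 1.09 ± 0.11 in EOM (adjusted p = 0.00361) and 1.48 ± 0.15 in trunk (adjusted p = 0.000447). cd74b, which makes an invariant chain of antigen presentation, rose by 0.80 ± 0.12 in EOM (adjusted p = 0.0128), with 286 ± 24.5 CPM in mutants and 164 ± 6.58 CPM in WT, and by 1.52 ± 0.21 in trunk (adjusted p = 0.00250), with 136 ± 39.5 CPM in mutants and 48.1 ± 1.90 CPM in WT. myo1f, a leukocyte myosin gene, rose in both tissues, by 0.94 ± 0.15 in EOM (adjusted p = 0.0173) and 1.06 ± 0.18 in trunk (adjusted p = 0.00765). In EOM inpp5d, a lipid phosphatase gene of blood cells (0.71 ± 0.12, adjusted p = 0.0228), and hcls1 (0.69 ± 0.12, adjusted p = 0.0237) also rose. In trunk fcer1gl, a gene for an Fc receptor signalling chain (1.72 ± 0.18, adjusted p = 0.000575), laptm5, a lysosomal protein gene of blood cells (0.98 ± 0.16, adjusted p = 0.00568), and arpc1b, a subunit gene of the Arp2/3 actin complex (0.96 ± 0.16, adjusted p = 0.00582), rose as well.

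**Figure D4:**
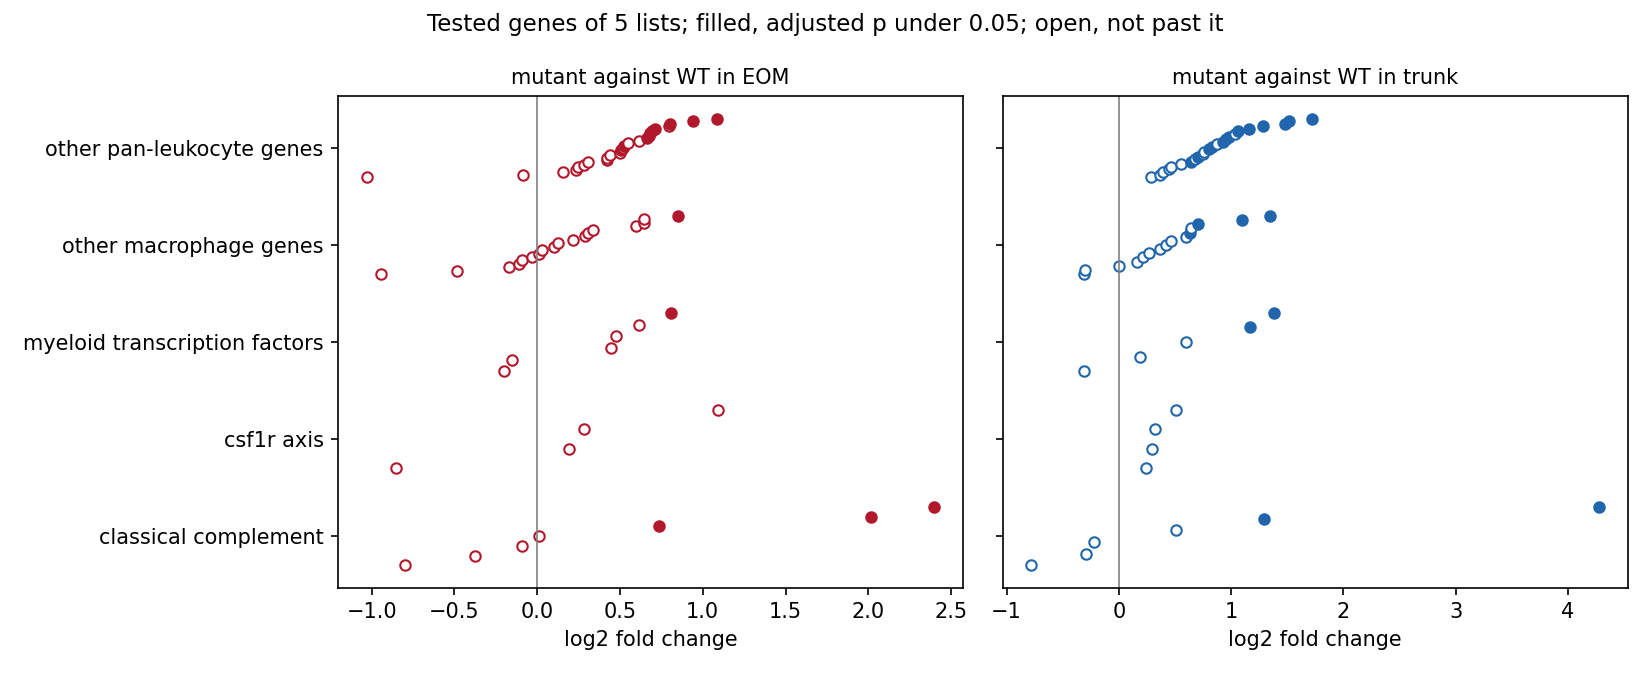
Log2 fold change of every tested gene of 5 lists, for mutant against WT in EOM and in trunk. Points are genes, ordered by value within a list, and filled points passed an adjusted p of 0.05. Of the other pan-leukocyte genes 10 of 25 are filled in EOM and 13 of 24 in trunk, all above 0, and no gene of the csf1r axis is filled.

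Markers of other cell types moved as follows. Of 10 listed neutrophil genes 6 were matched to an ID, and mpx, cpa5, lect2.1 and cxcr1 were not, so their levels are not known here. Neutrophil genes had no call among 4 tested in EOM, where the 6 matched genes summed to 6.58 to 8.82 CPM in mutants and 6.34 to 7.50 CPM in WT. In trunk 2 of 4 rose, csf3r (0.85 ± 0.23, adjusted p = 0.0463) and mmp9 (0.96 ± 0.26, adjusted p = 0.0469), and the sum was 8.16 to 11.3 CPM in mutants and 5.03 to 5.45 CPM in WT. Of the lymphocyte genes zap70, a T cell kinase gene, rose in both tissues, the 1 call among 8 tested in EOM (1.40 ± 0.24, adjusted p = 0.0228) and among 6 in trunk (1.65 ± 0.43, adjusted p = 0.0439). Their 9 genes summed to 11.8 to 16.2 CPM in mutant EOM and 6.76 to 11.6 CPM in WT EOM, and in trunk to 9.64 to 12.2 CPM in mutants and 6.40 to 6.53 CPM in WT. The part of these cells in the levels of lcp1, ptprc and coro1a was not tested.

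Fibroblast genes had 1 call among 5 tested in each tissue, col1a1a in EOM and dcn in trunk, both higher in mutants, and summed to 882 to 1100 CPM in mutant EOM and 720 to 780 CPM in WT EOM, and in trunk to 394 to 462 CPM in mutants and 217 to 326 CPM in WT. Of 4 endothelial genes cdh5 was lower in mutants in both tissues, at 37.0 ± 4.73 CPM in mutant EOM and 58.8 ± 6.05 CPM in WT EOM, and in trunk 83.4 ± 7.19 CPM in mutants and 123 ± 2.28 CPM in WT (SD, n = 3 each). The 4 erythrocyte genes, none of which was called, summed to 693 to 991 CPM in mutant EOM and 1013 to 2065 CPM in WT EOM, and in trunk to 283 to 459 CPM in mutants and 347 to 439 CPM in WT. Epithelial and muscle fibre genes had no call between mutants and WT. Of the retina genes pde6ha was lower in mutant trunk, and of the osteoclast genes ctsk was higher in mutant trunk. None of the tested melanophore or iridophore genes, chosen after the values were seen, was called. The part of each of these in the levels of the 10 genes was not tested.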

How the data were processed

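The authors deposited, per the file headers' layout, 1 table of raw read counts per library with 32520 genes and separate counts for each strand. Per the submitters' processing notes, STAR, DESeq2 and the build GRCz11 were used, with versions not given in the sources used here. Libraries were Illumina TruSeq Stranded mRNA, per the labels' protocols. The counts of the first single strand were taken as sense counts: the other strand held 2.77% to 3.21% of stranded reads. Tallies that name no gene were left out (unmapped 7.93% to 14.3%, mapped to several places 9.96% to 11.4%, in no gene 5.93% to 9.57%, ambiguous 1.34% to 1.59% of reads). Groups came from the sample titles. Symbols came from the supplied table (29201 of 32520 IDs) and RefSeq's gene table of assembly GRCz12tu. Of the 10 genes, 8 had the same symbol in both tables, while mpeg1.1 (ENSDARG00000055290.5) and spi1b (ENSDARG00000000767.12) were assigned by their neighbouring genes. RefSeq gene positions were used only to assign symbols in this way. No gene lengths or sequences were used here, so sums, shares and ratios across genes are not corrected for length.

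Tests used the quasi-likelihood method of edgeR 4.0.16 under R 4.3.3 (robust fit, TMM scaling with factors from 0.710 to 1.38, filterByExpr), with Benjamini-Hochberg adjustment over all tested genes and a threshold of 0.05. Each comparison used its own 6 libraries, and the difference used all 12. Standard errors follow from the F statistic. The same pipeline was tested on simulated data. DESeq2 1.42.0, other scalings and filters, counts that ignore strand, a replicate block, 1 fit of all 12 libraries and left-out libraries were alternatives. The deposited counts that ignore strand lay below the sense counts of spi1b and coro1a in all 12 libraries. They are therefore not a sum of both strands. For coro1a they were 700, against 1032 sense reads, in WT EOM replicate 1. In mutant EOM replicate 1 they were 1222, against 1910 sense reads. CPM values use TMM-scaled library sizes over 12 libraries. Floors of 3 reads cover counting error only, as reads carried no molecular identifiers. The 10 genes and all lists were chosen with earlier results of these data known. Of the list genes called in either tissue, at most the 5 with the smallest adjusted p per list and comparison are named, and of the marker lists those called are named.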

Additional observations from a re-analysis of the deposited data

Results flagged for a closer look

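Reads on the strand opposite to csf1ra, which enter no comparison of sense counts, numbered 4, 11 and 7 in the mutant EOM libraries, 22 in all, against 3, 2 and 1 in WT EOM. They were picked out because a signal in data outside the main measurement stood above the control libraries. The sense reads of csf1ra were 828, 909 and 996 in mutant EOM, against 351, 220 and 552 in WT EOM. Opposite-strand reads made up at most 1.196% of its stranded reads in any library, where all genes together had 2.77% to 3.21%. Whether that share differed between mutant and WT EOM was not tested.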

How the results depend on the processing

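No fold change of mutant against WT changed sign for any of the 10 genes under any alternative run. In EOM the number of genes called was 675, against 1468 with DESeq2 and 1191 with a replicate block, and 127 to 646 with 1 library left out; of the 10 genes 5 were called, 8 with DESeq2, 5 with the replicate block and 0 to 7 with 1 library left out. In trunk 1456 genes were called, 1238 with the replicate block and 488 to 2043 with 1 library left out. For the difference between tissues 18 genes were called, against 192 with DESeq2, 35 with no filter, 11 with at least 50 reads on average, 12 on unscaled totals, 20 with the replicate block and 5 to 19 with 1 library left out. Results that reversed were the log2 fold change of csf1ra between EOM and trunk in WT (0.54 on unscaled totals, which moved the median of all genes there by 0.60, and -0.50 to 0.23 with 1 library left out, the highest without WT EOM replicate 2) and the difference for c1qc (-0.36 to 0.013 with 1 library left out, the highest without WT EOM replicate 2); the cause of the changes with a library left out was not tested. On unscaled totals 73.7% of the genes called in EOM were higher in mutants, against 60.6% with TMM scaling, and of those called between tissues 87.9% in mutants and 82.4% in WT were higher in EOM, against 51.6% in mutants and 52.4% in WT with TMM scaling. For the difference between tissues the median of all genes was 0.11 on unscaled totals and -0.01 with TMM scaling, and relative to it the median of the 10 genes was -0.35 on unscaled totals and -0.37 with TMM scaling.

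Same-numbered libraries did not deviate together in every pair of any comparison (r from -0.25 to 0.51 for mutant against WT in EOM), so they were not treated as paired; whether any share fish is not given in the sources used here. Depth limits mpeg1.1, with 4 to 90 reads per library.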
